A study of Mus musculus with 2 samples.

Results

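Transcript levels of 10 genes of the Bcl2 family were examined in 2 sorted CD4+ T cell populations. They were chosen by name for their roles in survival and death, and each name was found once among the 41592 gene IDs of the deposited table. There were 4 survival genes (Bcl2, Bcl2l1, Mcl1 and Bcl2a1b), 4 BH3-only death genes (Bcl2l11, Bad, Pmaip1 and Bbc3) and 2 pore-forming effector genes (Bax and Bak1). Both populations came from lymph nodes and spleens of C57BL/6 mice aged 6 to 8 weeks with the genotype Foxp3 dCNS1-Cre-R26-YFP. In these mice Cre is driven by Foxp3 regulatory DNA without the element CNS1, and YFP at the Rosa26 locus stays on in cells where Cre has acted and in their progeny. The shared mark was YFP and the distinguishing mark was Thy1.1, with 1 library from Thy1.1-negative YFP+ cells and 1 from Thy1.1-positive YFP+ cells. The series compares thymus-derived regulatory T (Treg) cells with precursors of cells that have lost Foxp3. Its design text gives one and the same marker pair to both, so the populations are called here by their Thy1.1 staining. No wild-type or untreated group was included, and the number of mice behind each library is not given in the sources used here.

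Proteins of this family decide whether the outer mitochondrial membrane stays closed. Survival members such as Bcl2, Bcl-xL (the product of Bcl2l1) and Mcl1 hold the effectors Bax and Bak in check and bind the BH3-only proteins, which are made or released under stress or when growth factors are withdrawn. Bax and Bak that escape this control form pores, cytochrome c leaves the mitochondria, and caspases are switched on. In Treg cells, interleukin-2 acting through STAT5 is known to sustain survival, and the opposition of Mcl1 and Bim (the product of Bcl2l11) is known to set how many Treg cells persist.

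What binds survival protein to death protein is the BH3 segment, and the coding sequence shows what most of the 10 genes have in common. The core searched for was a leucine codon, 3 free codons, a glycine, alanine or serine codon and an aspartate codon. It was present in the coding sequence of 9 of the 10 genes, Bcl2a1b being the exception, but also in 33.9% of the 21573 mouse genes with a complete coding sequence. With 2 arginine codons right after the leucine it was present in 7 of the 10, all but Bcl2l1, Bak1 and Bcl2a1b, and in 0.199% of all genes. None of the further genes of the family taken up below had this stricter form. Among them the BH3-only genes Bid, Bmf and Hrk had the core alone, and the survival gene Bcl2l2 had neither. The stricter form is thus a trait of these 7 genes and not of the whole family. The stretches of 16 codons around the core are shown for 8 genes, 5′ to 3′, from GENCODE M21 transcripts, because they show how alike survival and death genes are at this place. Capitals mark the leucine codon and the closing pair of codons of the core.
Bcl2: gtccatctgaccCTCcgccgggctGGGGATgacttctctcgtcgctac
Bcl2l1: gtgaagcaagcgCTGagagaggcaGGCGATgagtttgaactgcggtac
Mcl1: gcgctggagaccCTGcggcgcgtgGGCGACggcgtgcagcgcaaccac
Bcl2l11: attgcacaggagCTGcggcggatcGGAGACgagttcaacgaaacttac
Bad: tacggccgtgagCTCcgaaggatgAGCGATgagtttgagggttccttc
Bbc3: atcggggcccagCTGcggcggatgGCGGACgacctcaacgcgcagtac
Bax: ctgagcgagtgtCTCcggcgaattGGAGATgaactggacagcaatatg
Bak1: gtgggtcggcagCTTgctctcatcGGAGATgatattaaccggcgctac

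Levels are given as FPKM, fragments scaled by gene length and by the number of reads in the library, which sets genes of different length on 1 scale. Ratios are Thy1.1-negative over Thy1.1-positive, and differences are of log2(FPKM + 1), Thy1.1-negative minus Thy1.1-positive. Whole reads behind each value could be recovered (the Thy1.1-negative library had 18536339 counted reads in all, the Thy1.1-positive library 18600581). From these reads came 95% counting intervals, exact Poisson for levels and exact Clopper-Pearson for ratios. They cover counting error only. With 1 library per population there is no replicate error, so no test was made and no difference between the populations has been checked against the spread between animals.

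Defining T cell markers were present. All 10 pan T cell genes passed the filter and summed to 4189.8 and 3404 FPKM, and Foxp3, the Treg lineage factor, was at 158 and 237 FPKM for Thy1.1-negative and Thy1.1-positive cells, a ratio of 0.670 (0.647 to 0.693). Of 9 Treg genes with a value, 1 had a higher level in the Thy1.1-negative library. At least 2-fold lower there were 3 (Gpr83, Ikzf4 and Il2ra), against 1.15% of all genes past the filter. By scaling on the upper quartile of values above 0, 4 of the 9 were higher and 0 were 2-fold lower. Thy1 transcript was at 246 and 153 FPKM, a measure that does not separate its alleles. Markers of other cells were low, with exceptions. The B cell list summed to 418 and 265 FPKM, but 409 and 258 FPKM of that came from Ighm. Cd79b was at 6.45 and 3.97 FPKM (ratio 1.62, 1.25 to 2.11), in the same direction as Ighm (1.58). Cd79a went the other way, at 1.63 and 2.07 FPKM (0.788, 0.519 to 1.19), and Ms4a1 had 5 and 4 reads. The natural killer, CD8 T cell and erythroid lists each summed to less than 8 FPKM in both libraries (Ncr1 was at 0 in the Thy1.1-negative, and Gzmk in the Thy1.1-positive library). Klrb1c, the natural killer gene that passed the filter, was at 2.08 and 0.445 FPKM (56 and 12 reads, ratio 4.68, 2.48 to 9.60). The rest of that list was split. Ncr1 had 0 and 6 reads, Tyrobp 4 and 8 and Klra4 1 and 4. Fcer1g had 8 and 3, and Klra8 and Klri2 had 3 and 1 each. The myeloid list summed to 14.8 and 11.4 FPKM. Within it Itgam was at 4.17 and 0.272 FPKM, and Cd68, the other gene past the filter, at 8.86 and 9.11 FPKM (0.972). The dendritic cell list summed to 66.96 and 53.4 FPKM, nearly all of it Cst3, with Batf3 at 0 in the Thy1.1-positive library (2 reads in the other). Zbtb46, the other gene of that list past the filter, went the other way, at 2.60 and 2.83 FPKM (0.918, 0.717 to 1.17). Clec9a had 1 and 2 reads, Siglech 3 and 2, Flt3 19 and 16, Xcr1 16 and 9 and Itgax 9 and 2. The plasma cell list summed to 160.4 and 171 FPKM, mostly Xbp1. Of the plasma cell genes, Prdm1 was at 15.01 and 6.62 FPKM (2.27, 2.02 to 2.55) and Sdc1 at 3.51 and 2.06 FPKM (1.70, 1.21 to 2.41), against the direction of the sum. Jchain had 18 and 32 reads, Mzb1 3 and 4 and Tnfrsf17 1 and 2, in the direction of the sum. The part of these markers in the results was not tested. In bulk RNA, fewer cells of a type and less RNA per cell cannot be told apart.

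None of the 10 genes differed 2-fold between the libraries. Among the survival genes, Bcl2l1 was at 0.623 and Bcl2 at 0.666 of the Thy1.1-positive level in Thy1.1-negative cells. Mcl1 (0.959) was nearly level. Bcl2a1b (1.06) had few reads and a wide interval (0.713 to 1.58). Summed with its copies Bcl2a1a and Bcl2a1d, it was at 1.21 (1.05 to 1.41). Death genes were divided, with Bad at 1.72, Bak1 at 1.31 and Pmaip1 at 1.20 times the Thy1.1-positive level and Bcl2l11 at 0.758 of it. All 10 passed the filter of a mean FPKM of at least 1. A difference of at least 1 on the log2 scale was reached by 0 of the 10 upwards, where 1.93% of the 12820 genes past the filter reached it, and by 0 downwards, where 1.15% did. With a rule of 1.5-fold, 1 gene was higher (Bad; 5.81% of all genes) and 1 lower (Bcl2l1; 3.85% of all genes). Bcl2 lay just inside that rule at -0.57 on the scale of log2(FPKM + 1), though its plain FPKM was 1.5008 times as high in the Thy1.1-positive library. Differences lay above 0 for 5 genes and below 0 for 5, against 55.1% above 0 among all genes. The median difference was 0.01 over the 10 genes and 0.03 over all genes. By role it was -0.31 for the survival genes, 0.11 for the BH3-only genes and 0.23 for the effectors. By upper quartile scaling these medians were -0.06, 0.36 and 0.48, and with a mean FPKM of at least 5, which leaves out Bcl2a1b, that of the survival genes was -0.57. Counting intervals of the ratio lay above 1 for 3 genes (27.3% of all genes) and below 1 for 4 genes (19.2% of all genes), and included 1 for Bcl2a1b, Bbc3 and Bax.

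**Figure D1:**
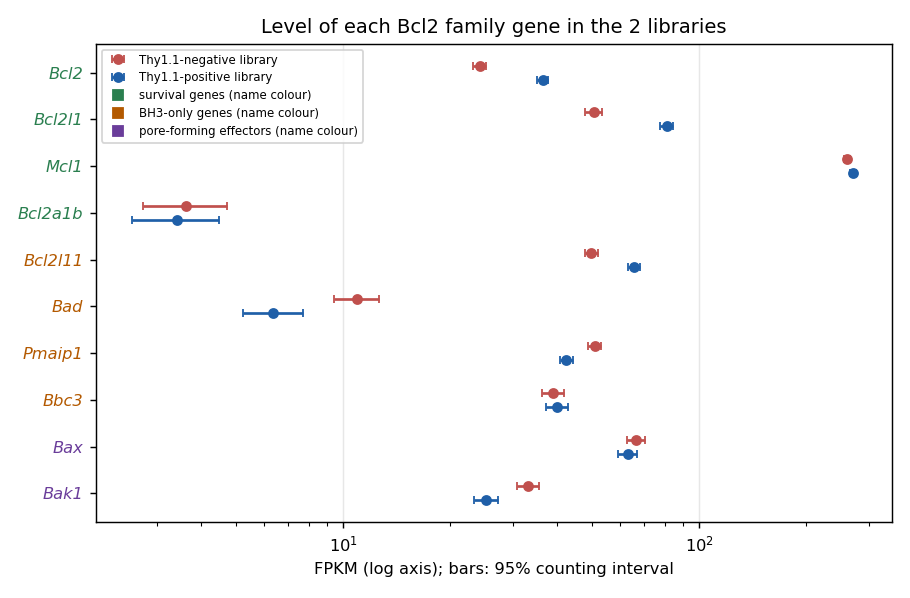
Level of each of the 10 genes in FPKM on a log axis, red for the Thy1.1-negative and blue for the Thy1.1-positive library, 1 library each, with bars for the 95% counting interval. Mcl1 stands far to the right in both libraries, and its bars just miss each other (upper end 265.1 for Thy1.1-negative, lower end 266.2 for Thy1.1-positive). The bars of Bcl2, Bcl2l1, Bcl2l11, Bad, Pmaip1 and Bak1 do not overlap between libraries either, and those of Bcl2a1b, Bbc3 and Bax do.

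Bcl2l1 (ENSMUSG00000007659) encodes Bcl-xL, a survival protein of activated lymphocytes. Thy1.1-negative cells gave 50.5 FPKM (47.9 to 53.3; 1380 reads) and Thy1.1-positive cells 81.1 FPKM (77.7 to 84.5; 2221 reads). The intervals did not overlap, and the ratio was 0.623 (0.583 to 0.667), the lowest of the 10 genes, so that Thy1.1-positive cells had 1.60 times the Thy1.1-negative level. Its difference was -0.67, and 2.99% of all genes past the filter had a difference as low or lower.

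Bcl2 (ENSMUSG00000057329), the founding survival gene of the family, lay in the same direction. Thy1.1-negative cells had 24.2 FPKM (2251 reads) and Thy1.1-positive cells 36.3 FPKM (3390 reads). The ratio was 0.666 (0.631 to 0.703) and the difference -0.57, at or below which lay 4.06% of genes. Both Bcl2 and Bcl2l1 therefore lay below the 5th percentile of the differences over all genes (-0.518), though short of 2-fold. An antisense neighbour, D630008O14Rik, overlaps 6.09% of the exon bases of Bcl2 and was itself at 0.909 and 3.13 FPKM. Whether the counting used strand is not given in the sources used here.

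Mcl1 (ENSMUSG00000038612) encodes a short-lived survival protein that is made and degraded continually. It was the most abundant of the 10 genes by a wide margin, with 260.1 FPKM (10471 reads) for Thy1.1-negative and 271 FPKM (10957 reads) for Thy1.1-positive cells. It ranked 344th and 302nd among all IDs in the table, and made up 76.8% and 69.2% of the FPKM of the 4 survival genes. The ratio was 0.959 (0.934 to 0.985). At this depth the interval is narrow enough to leave out 1, but the size of the difference, -0.06, was close to that of the median gene, and its direction turned when the libraries were scaled by the upper quartile of values above 0 (0.20), which moved the median of all genes by 0.23.

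Bcl2a1b (ENSMUSG00000089929) is 1 of a set of near-identical mouse copies of Bcl2a1, a survival gene induced by NF-kB. Thy1.1-negative cells had 3.63 FPKM (55 reads) and Thy1.1-positive cells 3.42 FPKM (52 reads), a ratio of 1.06 (0.713 to 1.58). The interval includes 1, so a difference was not detectable at this depth. Its copy Bcl2a1d held more reads, with 352 and 285 (22.0 and 17.8 FPKM, ratio 1.24, 1.06 to 1.45), and the copy Bcl2a1a had 1 and 0 reads. Summed, the 3 copies were at 25.7 and 21.2 FPKM, a ratio of 1.21 (1.05 to 1.41), of which Bcl2a1d was 85.6% and 83.8%.

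How reads were shared out among the copies is uncertain, because their coding sequences differ at only 12 of 519 positions. Bcl2a1b and Bcl2a1d are 98.8% identical (6 positions differ), Bcl2a1b and Bcl2a1a 97.9% (11) and Bcl2a1d and Bcl2a1a 98.7% (7). Only 20.8% of 50-base windows of Bcl2a1b transcripts occur in no other gene, against 91.5% for Bax and from 99.87% to 100% for the other 8 genes. The first 102 coding bases of each copy, from GENCODE M21, hold 7 of the 12 positions and are printed 5′ to 3′ with capitals at the positions that differ among the 3.
Bcl2a1b: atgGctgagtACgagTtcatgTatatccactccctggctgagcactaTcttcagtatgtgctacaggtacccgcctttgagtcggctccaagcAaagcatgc
Bcl2a1d: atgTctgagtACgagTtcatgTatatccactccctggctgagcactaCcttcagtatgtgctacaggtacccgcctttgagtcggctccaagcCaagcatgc
Bcl2a1a: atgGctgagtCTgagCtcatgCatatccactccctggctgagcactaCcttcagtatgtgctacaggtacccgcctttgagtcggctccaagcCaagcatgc
Values for Bcl2a1b alone are therefore uncertain, and those of the sum are less so. Bcl2a1b also shares 49.1% of its exon bases with the gene model Gm29094, which was listed at 0 in both libraries.

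**Figure D2:**
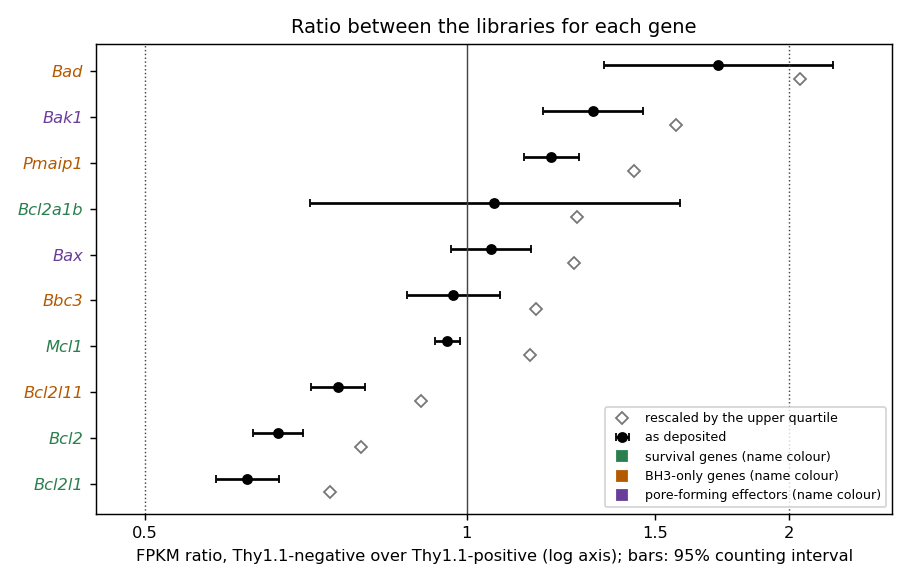
Ratio of FPKM, Thy1.1-negative over Thy1.1-positive, for each gene in order of its size, on a log axis with 95% counting intervals as bars and dotted lines at 2-fold. Open diamonds give the ratio after scaling by the upper quartile of values above 0, which moves every gene to the right takes Mcl1 and Bbc3 across 1 and puts Bad at 2.05.

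Among the BH3-only genes, Bcl2l11 (ENSMUSG00000027381) was the one with a lower level in the Thy1.1-negative library past counting error. It encodes Bim, which sets off death when cytokine is withdrawn and removes self-reactive T cells. Its level was 49.9 FPKM (1966 reads) for Thy1.1-negative and 65.8 FPKM (2603 reads) for Thy1.1-positive cells. The ratio was 0.758 (0.714 to 0.804) and the difference -0.39, at or below which lay 8.04% of genes. Bim was thus lower in the same library as the survival genes Bcl2 and Bcl2l1.

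Bad (ENSMUSG00000024959), whose product is held inactive by growth factor signals through phosphorylation and 14-3-3 proteins, had the highest ratio of the 10 genes. Thy1.1-negative cells had 10.9 FPKM (183 reads) and Thy1.1-positive cells 6.38 FPKM (107 reads), a ratio of 1.72 (1.34 to 2.199). The difference was 0.70, with 96.02% of genes at or below it. Since it rests on the fewest reads of any member except Bcl2a1b, its interval is wide and reaches past 2-fold. By upper quartile scaling the ratio was 2.05 and the difference 0.93, still short of 1. Exons of Gpr137 on the opposite strand overlap 20.5% of its exon bases, and Gpr137 was at 4.35 and 4.18 FPKM.

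Pmaip1 (ENSMUSG00000024521) encodes Noxa, a BH3-only protein that binds Mcl1 and is a target of p53. Its values were 50.9 FPKM (2495 reads) and 42.4 FPKM (2087 reads) for Thy1.1-negative and Thy1.1-positive cells, a ratio of 1.20 (1.13 to 1.27). Bbc3 (ENSMUSG00000002083) encodes Puma, another p53 target, which binds all survival proteins of the family. It was at 38.9 FPKM (764 reads) and 40.02 FPKM (789 reads), a ratio of 0.972 (0.879 to 1.07). The interval of Bbc3 included 1, and the sign of its difference, -0.04, turned with upper quartile scaling (0.21).

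The effectors were higher or alike in the Thy1.1-negative library. Bak1 (ENSMUSG00000057789), whose protein sits in the mitochondrial membrane, was at 33.1 FPKM (799 reads) for Thy1.1-negative and 25.2 FPKM (611 reads) for Thy1.1-positive cells, a ratio of 1.31 (1.18 to 1.46). Its difference of 0.38 was as high as or higher than that of 87.9% of genes. Ggnbp1 on the opposite strand overlaps 25.5% of its exon bases and was at 1.21 and 1.40 FPKM. Bax (ENSMUSG00000003873), whose protein moves from the cytosol to mitochondria, was at 66.5 FPKM (1071 reads) and 63.1 FPKM (1020 reads). Its ratio of 1.05 (0.966 to 1.15) left a difference undetectable at this depth. The gene model Gm45808, not analysed here, shares 12.2% of the exon bases of Bax.

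**Figure D3:**
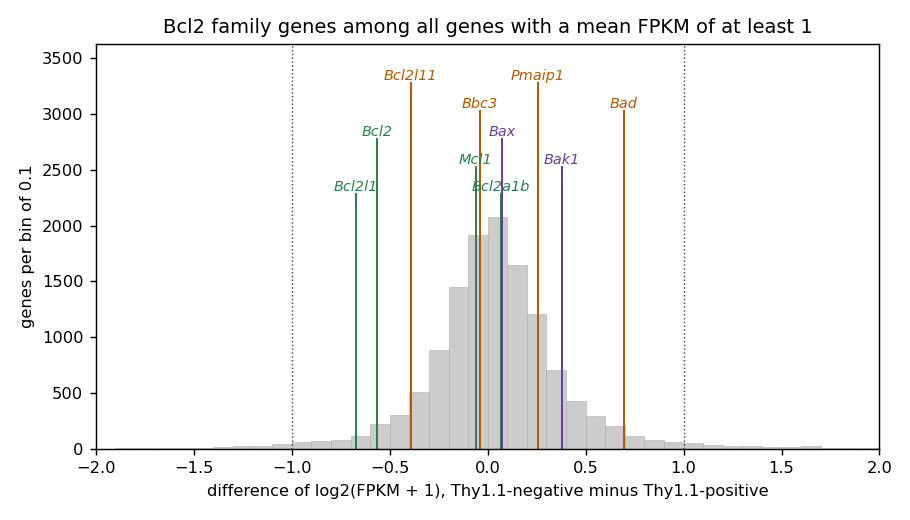
Distribution of the difference of log2(FPKM + 1), Thy1.1-negative minus Thy1.1-positive, over the 12820 genes whose mean FPKM reached 1, in bins of 0.1, with a coloured line for each of the 10 genes (green survival, orange BH3-only, purple effector). All 10 lines fall between the dotted 2-fold lines, from Bcl2l1 at -0.67 to Bad at 0.70.

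Set side by side within a library, on the FPKM scale, 6 of the 10 genes held another place in one library than in the other. In the Thy1.1-negative library Mcl1 was followed by Bax, Pmaip1, Bcl2l1, Bcl2l11, Bbc3, Bak1, Bcl2, Bad and Bcl2a1b. The intervals of the neighbours Pmaip1 and Bcl2l1, and of Bcl2l1 and Bcl2l11, overlapped. In the Thy1.1-positive library Mcl1 was followed by Bcl2l1, Bcl2l11, Bax, Pmaip1, Bbc3, Bcl2, Bak1, Bad and Bcl2a1b, with overlapping intervals of Bcl2l11 and Bax, of Pmaip1 and Bbc3, and of Bbc3 and Bcl2. Bcl2l1 thus held place 4 in one library and place 2 in the other. These levels divide by the gene length the authors used, from 817 bases for Bcl2a1b to 5016 for Bcl2. When levels were instead computed per summed exon length, an alternative added after seeing the data, Bcl2l1 held places 6 and 4 and Bcl2l11 places 8 and 7 for Thy1.1-negative and Thy1.1-positive cells, while Mcl1 stayed first.

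The balance of survival to death transcripts was read from the ratio of each survival gene to each death gene within a library, a quantity that no scaling between libraries can move. Of the 24 such pairs, 20 had a lower ratio in the Thy1.1-negative library and 4 a higher one. The median of the 24 changes was 0.708. The 24 pairs are built from 10 genes and are not independent. Counting intervals of the change lay below 1 for 17 pairs and above 1 for 1, and 6 included 1. They thus left out 1 for 18 of 24 pairs, against 42.0% of all pairs of genes past the filter, whatever their number of reads. The counts by direction have no such background, since the order of genes in a pair is otherwise arbitrary. In 3 pairs the differences of log2(FPKM + 1) of both genes lay at least 1 apart, as they did for 7.20% of all pairs of genes past the filter.

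The 3 pairs set Bcl2 or Bcl2l1 against Bad or Bak1. In the Thy1.1-negative library there was 4.62 times as much Bcl2l1 as Bad by FPKM, and in the Thy1.1-positive library 12.7 times, a 2.75-fold change (ratio 0.363, 0.284 to 0.465). The ratio of Bcl2 to Bad was 2.21 for Thy1.1-negative and 5.70 for Thy1.1-positive cells (ratio of change 0.388, 0.304 to 0.496). The ratio of Bcl2l1 to Bak1 was 1.53 and 3.21 (0.475, 0.419 to 0.538). In each of these, the larger excess of survival transcript was in the Thy1.1-positive library.

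A smaller change in the same direction was seen against Bax, with Bcl2l1 to Bax at 0.760 for Thy1.1-negative and 1.28 for Thy1.1-positive cells, so that Bcl2l1 was below Bax in one and above it in the other. Per summed exon length it was below Bax in both (FPKM of 16.2 for Bcl2l1 and 36.7 for Bax in Thy1.1-negative cells, and of 26.04 and 34.8 in Thy1.1-positive cells). Against Bcl2l11 the survival genes did not behave alike. The ratio of Bcl2 to Bcl2l11 changed little, from 0.486 to 0.552 (0.879, 0.812 to 0.952), while that of Mcl1 to Bcl2l11 was the higher one in the Thy1.1-negative library, 5.22 against 4.12 (1.27, 1.19 to 1.35). Mcl1 to Bbc3 did not differ beyond counting error (0.987, 0.890 to 1.09). Summed FPKM gave 338 and 392 for survival genes and 250.2 and 243 for death genes, or 1.35 and 1.61 survival transcripts per death transcript. Without Mcl1, an alternative added after seeing the data, the same ratio was 0.313 and 0.497. These sums count Bcl2a1b but leave out its copy Bcl2a1d, at 22.0 and 17.8 FPKM and thus higher in the Thy1.1-negative library. Counting it would raise the survival sum more in that library.

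**Figure D4:**
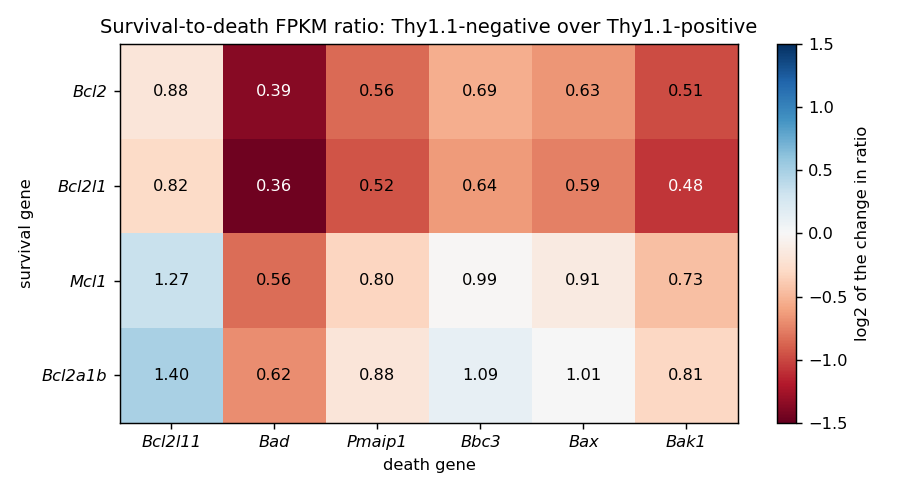
Change of the ratio of each survival gene (rows) to each death gene (columns), Thy1.1-negative over Thy1.1-positive, coloured on a log2 scale with the linear value printed in each cell. The rows of Bcl2 and Bcl2l1 are below 1 throughout, most so against Bad and Bak1, and 4 cells are above 1, Mcl1 against Bcl2l11 (1.27) and Bcl2a1b against Bcl2l11 (1.40), Bbc3 (1.09) and Bax (1.01), the intervals of the last 3 including 1.

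The promoters of these genes were read for sequence motifs of the factors known to act on the family. RefSeq promoter windows of 250 bases before the start on build GRCm38.p6 matched 9 of the 10 genes, with 15 start sites, and were set against 32851 start sites of all genes. Both strands were searched. The Foxo motif GTAAACA, known for the Foxo factors that drive Bcl2l11 and Bbc3 when growth factor signalling is low, occurred at 2 of the 15 start sites (13.3%, against 3.17% of all). The NF-kB consensus occurred at 2 (13.3%, against 3.90%) and the GC box GGGCGG at 10, in 7 genes (66.7%, against 32.7%). The share of G and C in the 15 windows ran from 44.8% (Bcl2a1b) to 81.6% (a window of Bbc3). Its median over all start sites was 52.4%. Start sites of 1 gene are not independent, and 2 windows of Bbc3 overlap. The part of base composition in these shares was not tested. The STAT motif TTCNNNGAA occurred at 0 of 15 start sites and in 7.02% of all. CACGTG and CCGGAAG occurred at 2 each, against 6.02% and 6.91% of all. A match is a run of letters and not a known binding site. The windows with a Foxo or NF-kB match are printed in the direction of transcription with the match in capitals, because both factors are known regulators of genes of the family.
Bcl2l11, Foxo, chr2:128125791-128125837, plus strand, 227 bases before the start: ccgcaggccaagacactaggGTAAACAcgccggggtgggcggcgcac
Bbc3, Foxo on the other strand, chr7:16310074-16310120, plus strand, 167 bases before the start: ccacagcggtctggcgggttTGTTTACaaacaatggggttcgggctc
Bcl2l1, NF-kB consensus, chr2:152830930-152830967, minus strand, 242 bases before the start: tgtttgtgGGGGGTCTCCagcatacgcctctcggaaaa
Bbc3, NF-kB consensus, chr7:16309426-16309475, plus strand, 137 bases before the start: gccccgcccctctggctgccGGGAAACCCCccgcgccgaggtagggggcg

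Of the 15 further genes of the family, 10 passed the filter, 8 with a difference above 0, 2 below 0 and 0 at least 2-fold either way, with a median of 0.08. Bcl2l15 was at 2.33 FPKM for Thy1.1-negative and 1.34 FPKM for Thy1.1-positive cells (ratio 1.74, 1.12 to 2.74). Bid, the BH3-only link from death receptors to mitochondria, was at 17.1 and 14.7 FPKM (1.16, 0.998 to 1.34), and Bmf, a BH3-only gene, at 9.02 and 8.79 FPKM. Bcl2l2, a survival gene, was at 3.10 and 2.89 FPKM, Bcl2l12 at 4.72 and 4.40 FPKM, and Bcl2l13 at 11.4 and 10.5 FPKM (1.08, 1.01 to 1.17). Bcl2l14 was at 0.886 and 1.20 FPKM (0.738, 0.422 to 1.27). The mitophagy genes Bnip3 and Bnip3l were at 6.22 and 7.32 FPKM and at 125 and 124 FPKM. The remaining genes, apart from the Bcl2a1 copies, had few reads, with Bik at 13 and 7, Bok at 9 and 2, Bcl2l10 at 8 and 4 and the BH3-only gene Hrk at 4 and 6.

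Downstream of the pores, genes of the apoptosome and the caspases were measured for 16 of 16 listed genes, with 12 above 0, 4 below, 0 past 2-fold and a median of 0.13. Apaf1, the scaffold that cytochrome c assembles into the apoptosome, was at 24.7 and 14.6 FPKM (1.70, 1.56 to 1.85) for Thy1.1-negative and Thy1.1-positive cells. The initiator caspase Casp9 was at 7.17 and 4.81 FPKM (1.49, 1.20 to 1.86). The lowest difference was that of Endog, a mitochondrial nuclease, at 2.74 and 3.69 FPKM (0.742, an interval of 0.512 to 1.07 that includes 1). Apaf1 and Casp9 thus had intervals above 1, as Bak1 and Bad did.

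The 7 genes of inhibitors of apoptosis proteins had 3 above 0 and 4 below, with a median of -0.02 and 0 past 2-fold. Naip2, an inflammasome sensor, was at 5.48 and 3.36 FPKM (1.63), Xiap, the direct caspase inhibitor, at 29.5 and 26.2 FPKM (1.13), Naip5 at 6.48 and 7.26 FPKM (0.892) and Birc2 at 149 and 161 FPKM (0.929). Of the 12 death receptor genes, 9 were above 0 and 3 below, with a median of 0.18 and 0 past 2-fold. The adaptor kinase Ripk1 was at 19.5 and 14.7 FPKM (1.33), the adaptor Fadd at 2.36 and 1.58 FPKM (1.49), Daxx at 73.2 and 57.1 FPKM (1.28) and the receptor Tnfrsf10b at 12.5 and 14.7 FPKM (0.853).

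Regulators upstream of the family came from 3 lists. For p53 and its targets, which include the genes that share their regulator with Bbc3 and Pmaip1, 16 of 18 were measured, 9 above 0 and 7 below, with 0 past 2-fold and a median of 0.05. Ccng1 was at 53.6 and 35.1 FPKM (1.53), Trp53inp1 at 293 and 194 FPKM (1.51), Ddit4 at 59.1 and 39.9 FPKM (1.48) and Gadd45a at 26.2 and 37.4 FPKM (0.700).

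For Foxo and interleukin-2 or interleukin-7 signalling, 17 genes were measured, 9 above 0 and 8 below, 0 at least 2-fold higher and 1 at least 2-fold lower, with a median of 0.01. That 1 gene was Il2ra, the high-affinity chain of the interleukin-2 receptor, at 98.8 and 205 FPKM (0.482, 0.466 to 0.499). Its call was lost with upper quartile scaling, where its difference was -0.79. Stat5a was at 145 and 225 FPKM (0.645) and Cish, a STAT5 target, at 60.1 and 93.8 FPKM (0.641), while the kinase Akt1 was at 141 and 108 FPKM (1.30). Il2ra, Stat5a and Cish were thus below 1 in ratio, as Bcl2l1 and Bcl2 were, but Il2rg (1.13), Jak3 (1.03) and Pim1 (1.02) were above it. All were read from the same pair of libraries, and a link between them was not tested.

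For NF-kB, 10 genes were measured, 3 above 0 and 7 below, 0 past 2-fold, with a median of -0.15. Rel was at 158 and 234 FPKM (0.678), Nfkb1 at 331 and 480 FPKM (0.690), Relb at 84.8 and 95.8 FPKM (0.885) and Ikbkg at 17.3 and 15.8 FPKM (1.09). The split of this list depended on scaling, with 8 of 10 above 0 and a median of 0.11 by the upper quartile, where Rel and Nfkb1 stayed below 0. Over the whole pathway, other family genes included, 112 of 121 listed genes passed the filter, with 70 above 0 and 42 below and a median of 0.06. At least 2-fold higher were 0 (1.93% of all genes) and at least 2-fold lower was 1 (1.15% of all genes).

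**Figure D5:**
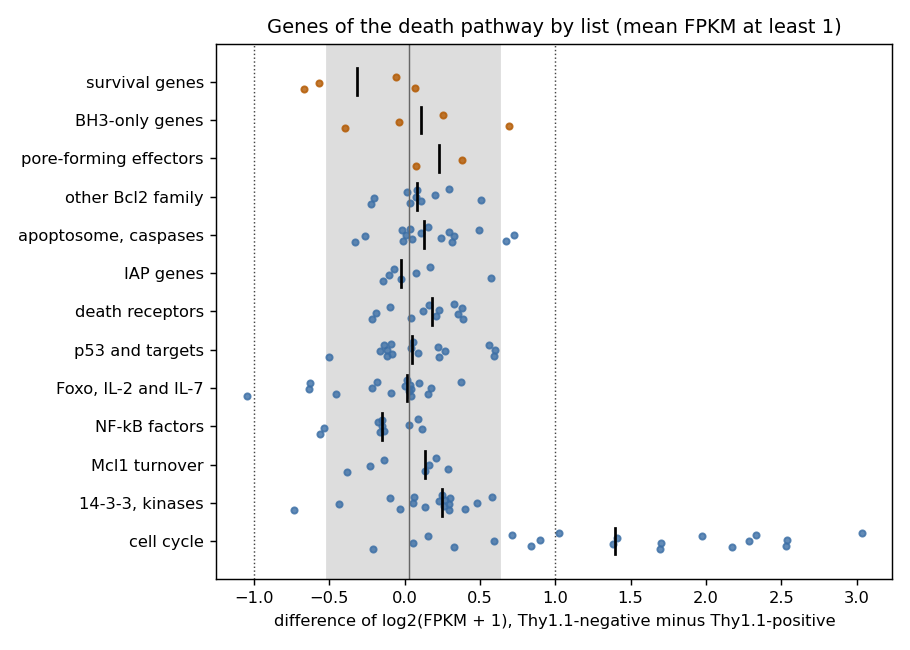
Difference of log2(FPKM + 1), Thy1.1-negative minus Thy1.1-positive, for each gene of each list whose mean FPKM reached 1, with a black bar for the list's median, a grey band for the middle 90% of all genes and dotted lines at 2-fold. The lists around the 10 genes lie mostly within the band, and the cell cycle list reaches far beyond it.

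Genes of cell division moved with the library as well. Of 20 cell cycle genes, 12 were at least 2-fold higher and 0 at least 2-fold lower in the Thy1.1-negative library, with a median of 1.40, and Stmn1, the highest, was at 53.9 and 5.70 FPKM. The median of the list was 1.93 with a pseudocount of 0.1, 0.67 with a pseudocount of 5 and 0.84 at a mean FPKM of at least 5. The part of cell division in the differences of Bad, Bak1 and Apaf1 was not tested.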

How the data were processed

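The authors deposited 1 table of FPKM values per Ensembl gene, with 1 column per library, made from total RNA with a NEBNext Ultra kit. In the column names, P was taken for Thy1.1-positive and N for Thy1.1-negative. Bowtie2 2.2.3, TopHat2 2.0.12, HTSeq 0.6.1 and build mm9 are named per the submitters' processing notes. The sources used here give no settings.

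Symbols, exons and coding sequences came from GENCODE M21, with a symbol for 40254 of 41592 IDs (96.8%). It is on another build than mm9, so no gene positions are given except for RefSeq promoter windows on GRCm38.p6. Whole reads were recovered from FPKM: values above 0 in both libraries (23442 genes) had whole-number ratios within 2e-12, and the reads of all genes came to 100.2% and 100.1% of the totals. No count model was fitted, because each population has 1 library. A gene with a mean FPKM of 1 or more counted as 2-fold higher or lower where log2(FPKM + 1) differed by 1 or more, a scale that understates changes of low genes. Intervals of pair ratios used a normal approximation on the log scale. Calculations used Python 3.11.15 with pandas 2.3.3, numpy 2.4.6 and scipy 1.17.1, and figures used matplotlib 3.10.9. Only the recovery of reads and the 2-fold rule were tested on simulated data, in which the gene lengths were known.

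The 10 genes and all gene lists were chosen with earlier results of these data known. Named were all genes of the family and, for each other list with at least 5 measured genes, the largest and smallest difference, up to 2 more by absolute difference and any gene past 2-fold, with Foxp3, Il2ra and Thy1. For the cell cycle list only the largest and the smallest difference are given, and the markers named for other cells, Gpr83 and Ikzf4 were chosen after their values were seen. Some genes that the rule names are left out here. Genes that overlap a member are named for that reason. Other settings tried were rules of 1.5-fold and 4-fold, pseudocounts of 0.1 and 5, a minimum mean FPKM of 5 or none, and 4 rescalings.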

Additional observations from a re-analysis of the deposited data

How the results depend on the processing

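With a 1.5-fold rule, 1 of the 10 genes was called higher (Bad) and 1 lower (Bcl2l1). Of the 112 pathway genes past the filter, 4 were called higher and 4 lower in place of 0 and 1. Over all genes the same rule called 5.81% higher and 3.85% lower. The 1 lower call, Il2ra, became 0 with upper quartile scaling and 0 with a 4-fold rule. The median change of the survival to death ratio, 0.708, was 0.838 from summed FPKM and 0.630 from sums without Mcl1, which was added after seeing the data. Of the Bcl2a1 copies, these values count Bcl2a1b only. Upper quartile scaling moved the median of all genes by 0.23 on the log2 scale and the calls over all genes from 247 higher and 148 lower to 434 and 90. It uses values above 0, which 28107 genes had in the Thy1.1-negative and 25709 in the Thy1.1-positive library. It turned the sign of Mcl1 (0.20), Bbc3 (0.21), the list of inhibitors of apoptosis proteins (0.19) and the NF-kB list (0.11). The p53 list turned to -0.0201 at a mean FPKM of at least 5, and the Foxo and interleukin list to -0.0209 with the median centred and to -0.0217 without the 100 highest genes. For all of these but the scaling itself the cause was not tested. Other settings kept the direction of the 10 genes. Summed exon lengths gave 281% and 282% of the library totals and so no intervals. No replicate could be left out. No paired analysis was possible because each population has 1 library. Depth limits Bcl2a1b and Bad most.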

Other observations

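Genes that act on the proteins of the family after they are made were also measured. Of 9 listed genes of Mcl1 turnover, 7 passed the filter, 4 with a difference above 0 and 3 below, 0 past 2-fold, with a median of 0.14. Huwe1, a ubiquitin ligase for Mcl1, was at 329 FPKM for Thy1.1-negative and 430 FPKM for Thy1.1-positive cells (ratio 0.765, 0.750 to 0.781). Usp9x, which removes ubiquitin from Mcl1, was at 108 and 126 FPKM (0.852). Fbxo4 was at 15.7 and 12.6 FPKM (1.24) and Fbxw7, another ligase for Mcl1, at 15.3 and 13.1 FPKM (1.17). Both Huwe1 and Usp9x thus had ratios below 1, although by upper quartile scaling the difference of Usp9x was 0.03 and that of Huwe1 -0.13.

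Of 17 genes for 14-3-3 proteins, which hold phosphorylated Bad in the cytosol, and for kinases and partners of Bad and Bim, 13 were above 0 and 4 below, 0 past 2-fold, with a median of 0.25. All 6 listed 14-3-3 genes were above 0, among them Ywhah at 119 and 79.4 FPKM (ratio 1.502, 1.42 to 1.59). Pak1, a kinase known to phosphorylate Bad, had the lowest difference, at 6.84 and 12.03 FPKM (0.569, 0.499 to 0.647). Rps6ka1, another kinase of Bad, was at 102 and 73.04 FPKM (1.40) and Mapk9 at 28.6 and 39.1 FPKM (0.733). No difference here has a replicate.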
